A study of Mus musculus with 24 samples.

Results

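The genotype by feeding interaction in mouse liver was the difference between 2 fasting responses: the log2 change on fasting in knockout livers minus the same change in control livers, for every expressed gene. A value of 0 means that fasting changed a gene equally in both genotypes, and a value of -1 means that it rose 2-fold less, or fell 2-fold more, in the knockout. All genes that passed a filter on low counts were members, 16757 of the 41388 genes in the files, and the measurement used 22 of the series' 24 libraries. The knockout mice were described by the submitters as lacking alanine transaminase 2 (ALT2, encoded by Gpt2) in the liver, and the controls carried the floxed gene (fl/fl). Mice of each genotype had food ad libitum or were fasted for 18 h, which gave 5 control fed, 5 control fasted, 6 knockout fed and 6 knockout fasted livers, each 1 library with a number of its own in the title. Every title also carries the letter M, whose meaning the titles do not spell out. Neither the age of the mice nor the Cre that drove the deletion is given in the sources used here. Whole liver was sequenced after oligo-dT selection, so RNA of cells other than hepatocytes is included, and fewer cells of a type cannot be told apart from less RNA per cell.

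ALT2 is the mitochondrial alanine transaminase, which turns alanine into pyruvate, and Gpt encodes the cytosolic enzyme of the same reaction, ALT1. In fasting the liver takes up alanine released by muscle, makes glucose from its carbon and disposes of its nitrogen as urea. The same hours bring a switch to fat as fuel: the nuclear receptor PPARA turns on fatty acid oxidation and ketone body synthesis, while the sterol regulated factors SREBP1c and SREBP2, which drive fatty acid and cholesterol synthesis, lose activity as insulin and food intake fall.

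The 22 libraries held 18390437 to 55284550 reads assigned to genes. The hepatocyte markers (Alb, Ttr, Apoa1 and others) summed to between 66452 and 148267 CPM (reads of a gene relative to all assigned reads of its library, scaled for composition) in every one of them. The left-out control fed replicate 6 had a damaged file. The left-out library labelled control fasted replicate 4 had 230.5 CPM of the hepatocyte markers and 21627 CPM of kidney tubule markers, against at most 18.97 CPM of the latter in the libraries used. The 18.97 CPM was that of a control fasted library, and the other groups reached at most 3.773 CPM. The kidney marker Kap was at 8.974 CPM in control fasted replicate 5 and at most 0.8962 CPM in the other libraries used. On the first principal component, which held 11.7% of the variance, every fed library lay below every fasted one: control fed at -67.59 to -33.43, knockout fed at -40.06 to -8.22, control fasted at 25.41 to 49.3 and knockout fasted at 19.57 to 48.92.

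Gpt2 rose on fasting by a similar factor in both genotypes, at very different levels. In control fed livers its level was 362.5, 388.6, 307.1, 347.2 and 446.9 CPM, and in control fasted livers 697.7, 794.7, 727.3, 706.9 and 557.3 CPM. In knockout livers it lay between 48.27 and 78.04 CPM when fed (median 58.86) and between 52.14 and 148.2 CPM when fasted (median 122.6). The fed and fasted groups did not overlap in controls and overlapped in the knockout through 1 fasted library, replicate 5 at 52.14 CPM. The rise was 0.91 ± 0.20 on the log2 scale in controls (SE, adjusted p = 0.00324 by Benjamini-Hochberg in edgeR's quasi-likelihood test) and 0.88 ± 0.18 in the knockout (adjusted p = 0.00221). The interaction was -0.03, with a 95% interval from -0.57 to 0.52. Gpt went from a mean of 400.0 CPM in control fed to 299.6 in control fasted livers, which did not overlap, and stayed at means of 316.2 and 312.9 in knockout fed and fasted livers, which did. Its interaction was 0.40 (interval 0.03 to 0.78) and did not pass over all genes (adjusted p = 1).

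Fasting itself changed many genes, and in the same direction in both genotypes. Averaged over the genotypes 2404 genes passed the test (14.3% of those tested), of which 1187 rose (7.08%) and 1217 fell (7.26%). In control livers 1360 genes passed (8.12%) and in knockout livers 1029 (6.14%). The 691 genes that passed in both all changed in the same direction; they made up 50.8% of the control calls and 67.2% of the knockout calls. A call in 1 genotype alone did not by itself show a difference between them. Of 669 genes called only in controls 475 had an interaction interval that covered 0, and of 338 called only in the knockout 277 did. Over all genes tested 4.69% had an interval that excluded 0, a smaller share than in either set. Choosing genes by a call in 1 genotype alone itself raises that share.

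Among named genes with a mean log2 CPM of 2 or more, Cyp4a14, an omega-hydroxylase of fatty acids, had the largest averaged rise. It rose from a mean of 79.98 to 5868 CPM in controls and from 200.5 to 5830 CPM in the knockout. Ehhadh, the bifunctional enzyme of peroxisomal beta-oxidation, rose by 3.57 ± 0.34 in controls and 3.02 ± 0.30 in the knockout (log2 change ± SE; interaction -0.55, interval -1.41 to 0.32). The 10 largest named risers also held Gadd45b and Cdkn1a, both induced by cell stress, and Cntnap1, with averaged rises of 3.47, 3.46 and 3.18. The largest averaged fall among the named genes of that level was that of Thrsp, a lipogenic gene driven by insulin and thyroid hormone, which went from 256.0 to 12.47 CPM in controls and from 126.9 to 17.97 CPM in the knockout. Its change was -4.38 ± 0.58 and -2.81 ± 0.49, and its interaction 1.57 (interval 0.12 to 3.02; adjusted p = 1). Aqp8, a water channel, fell by nearly equal amounts, -2.71 ± 0.23 and -2.51 ± 0.20, with an interaction of 0.20 (interval -0.40 to 0.79). Mat1a, which makes the methyl donor S-adenosylmethionine in hepatocytes, rose by 1.66 ± 0.14 and 1.61 ± 0.12, and its interaction of -0.05 had an interval from -0.41 to 0.32. Acly, which supplies acetyl-CoA for fat synthesis, fell by 1.67 and 1.64 on the log2 scale in controls and knockout, with an interaction of 0.03 (interval -0.36 to 0.42).

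**Figure D1:**
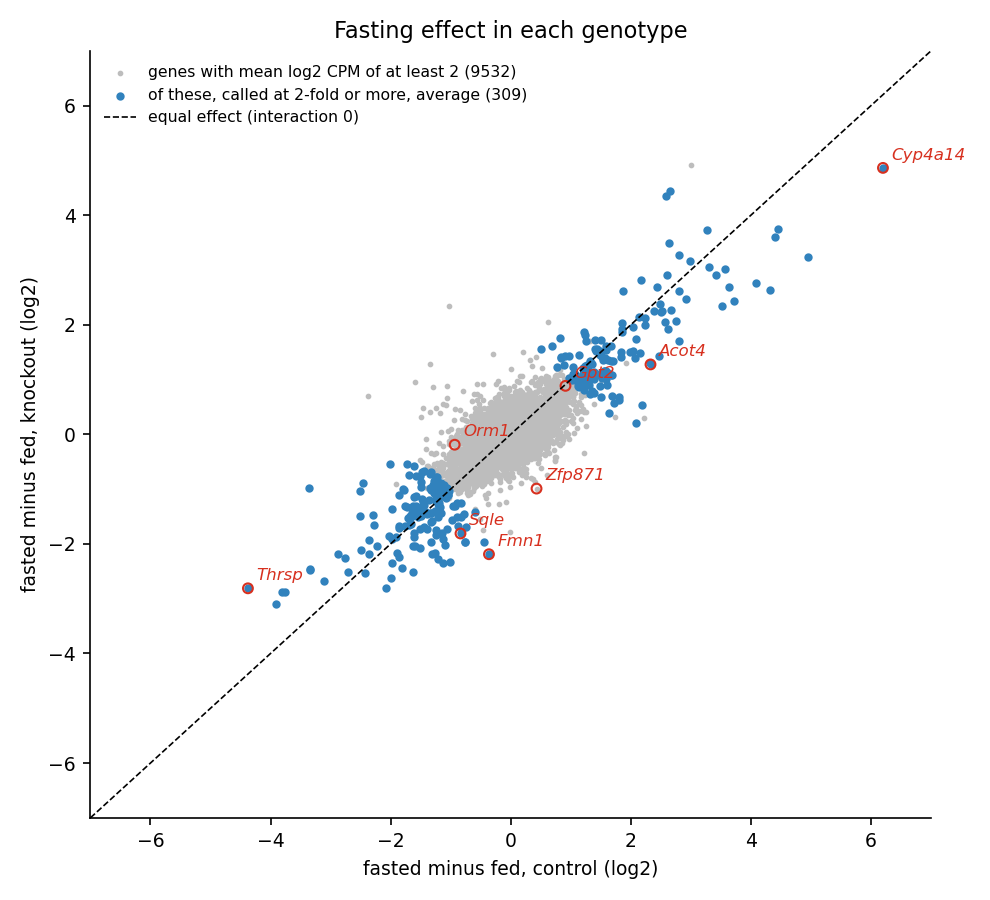
Log2 change on fasting in control (horizontal) and knockout livers (vertical) for the 9532 genes whose mean log2 CPM reached 2. The dashed line marks equal effects; blue points are the 309 genes called with an averaged change of at least 2-fold, red circles mark named genes, and 2 genes beyond 7 on an axis are not drawn. The cloud follows the line, with most large risers below it and most large fallers above it.

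Against that shared response, the interaction test called 1 gene of 16757 (0.00597%). At an unadjusted p under 0.05 there were 786 genes (4.69%), 362 with a higher and 424 with a lower change in the knockout. The gene called was Zfp871, which encodes a zinc finger protein. It lies on the minus strand of chromosome 17 at 32771236 to 32788287 (GRCm38). Because the call rests on this gene, its promoter window is shown first: 250 bases before to 50 after the transcription start, from RefSeq (GRCm38.p6), chr17:32788238-32788537, minus strand, 5′ to 3′. Capitals mark CCAAT in either orientation (the letters bound by NF-Y) and the E-box CACGTG.
Zfp871: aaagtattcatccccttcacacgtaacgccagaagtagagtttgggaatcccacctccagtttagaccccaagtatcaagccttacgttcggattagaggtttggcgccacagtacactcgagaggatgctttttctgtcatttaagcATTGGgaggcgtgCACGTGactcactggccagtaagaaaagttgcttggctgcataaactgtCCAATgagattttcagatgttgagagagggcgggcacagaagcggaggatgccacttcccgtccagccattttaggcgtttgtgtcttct
The window is the one further upstream of the 2 listed for the gene. It held 2 CCAAT matches and 1 CACGTG, letters found in 41.06% and 8.09% of the 27025 genes with a window.

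Zfp871 fell on fasting in the knockout and not in controls, where its change was above 0 and did not pass. Control fed livers had 18.34, 26.29, 11.86, 19.69 and 18.43 CPM, and control fasted livers 29.12, 20.19, 23.98, 24.45 and 29.49 CPM, which overlapped. Knockout fed livers had 27.56 to 43.66 CPM (median 31.8) and knockout fasted livers 11.05 to 21.52 CPM (median 15.7), which did not overlap. All 6 knockout fed values were also above all 5 control fed values. The fasting change was 0.43 ± 0.18 in controls (adjusted p = 0.161) and -0.99 ± 0.17 in the knockout (adjusted p = 8.77e-05), and the interaction was -1.42 (interval -1.92 to -0.92; adjusted p = 0.0284). The call was close to its threshold. With each library left out in turn the interaction stayed between -1.57 and -1.29, but it lost the call in 13 of 22 cases, with adjusted p up to 0.112. The loss occurred without control fasted replicates 1 and 6, control fed replicates 1, 3, 4 and 5, knockout fasted replicates 1, 3, 4 and 6, and knockout fed replicates 1, 4 and 5. It also ended when the library labelled control fasted replicate 4 was added (-1.40, adjusted p = 0.129). Zfp871 belongs to a large family of similar zinc finger genes, and how reads shared between such genes were counted is not given in the sources used here.

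**Figure D2:**
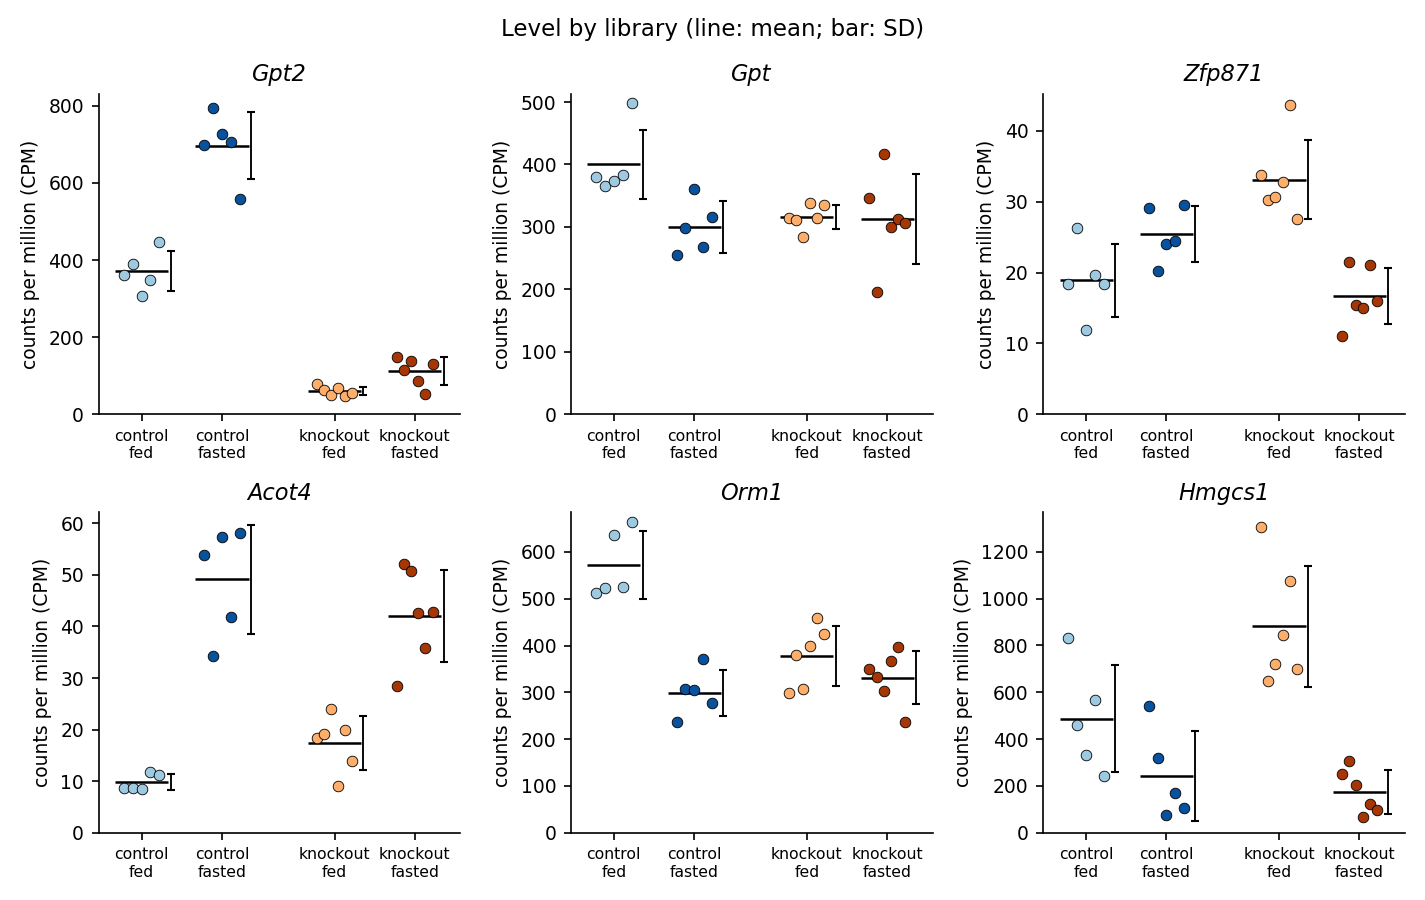
CPM of Gpt2, Gpt, Zfp871, Acot4, Orm1 and Hmgcs1 in each library of the 4 groups; points are libraries, lines group means and bars SD (n = 5 for control and 6 for knockout groups). Gpt2 rises with fasting in both genotypes, Zfp871 has higher values in knockout than control livers when fed and lower means when fasted, Orm1 has lower values in knockout livers when fed, and knockout fed Hmgcs1 lies above knockout fasted Hmgcs1 without overlap.

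No other gene passed. The second smallest adjusted p was 0.214 (edgeR), that of Colgalt2, a gene with a mean log2 CPM of -0.59 that is mentioned only for this p. The next 19 genes named are those with a symbol of their own and a mean log2 CPM of 2 or more; their adjusted p ran from 0.473 to 0.977, and their values are descriptions. With p as small, 16 genes under that level and 4 predicted genes were passed over. Of the 20 genes, 14 had a lower and 6 a higher change in the knockout. Fmn1, which encodes the actin-nucleating protein formin 1, had means of 5.041 and 3.946 CPM in control fed and fasted livers and of 11.59 and 2.52 CPM in knockout fed and fasted livers. Its fasting change was -0.36 ± 0.31 in controls and -2.19 ± 0.29 in the knockout (interaction -1.83, interval -2.69 to -0.96). Lnpep, an aminopeptidase that cleaves oxytocin and vasopressin and travels with glucose transporter vesicles, followed the same pattern, with means of 8.121 and 5.945 CPM in controls and 13.55 and 3.496 CPM in the knockout (interaction -1.52, interval -2.27 to -0.77). For both genes the knockout fed and fasted groups did not overlap, and the control groups did.

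Other genes of the 20 had a larger increase in controls and a higher mean in fed knockout than in fed control livers. Cxcl12, a chemokine that retains blood cells through CXCR4, went from 208.1 to 360.1 CPM in controls, without overlap, and from 307.2 to 322.8 CPM in the knockout, with overlap (interaction -0.72, interval -1.08 to -0.36). Nfil3, a repressor in the clock's output, went from 13.85 to 23.09 CPM in controls and from 24.21 to 17.33 CPM in the knockout (interaction -1.22, interval -1.90 to -0.54). Paqr9, a membrane receptor family gene, rose by 1.17 ± 0.14 in controls and 0.53 ± 0.12 in the knockout, both past the test, and its interaction was -0.64 (interval -1.01 to -0.26). Acot4, a peroxisomal thioesterase induced by PPARA, rose from 9.794 to 49.12 CPM in controls and from 17.4 to 42.1 CPM in the knockout. The fed and fasted groups of Acot4 did not overlap in either genotype, and its rise was 2.33 ± 0.21 against 1.27 ± 0.18 (interaction -1.05, interval -1.60 to -0.50).

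In the opposite direction, Orm1 and Orm2, which encode the serum protein orosomucoid, fell in controls, while their fed and fasted groups overlapped in the knockout. Orm1 had 512.0, 523.6, 635.2, 525.7 and 663.9 CPM in control fed and 236.2, 308.1, 305.1, 370.9 and 276.3 CPM in control fasted livers, which did not overlap. In the knockout it ranged from 298.7 to 458.2 CPM when fed and from 237.7 to 397.9 CPM when fasted, which overlapped. Its fasting change was -0.93 ± 0.14 and -0.19 ± 0.13, and its interaction 0.74 (interval 0.36 to 1.12). For Orm2 the change was -1.04 ± 0.23 and 0.07 ± 0.21 (interaction 1.11, interval 0.47 to 1.74). Orm1, Orm2 and Orm3 are close copies, so the split of reads among them is uncertain. Dnajb9, a cofactor of the chaperone BiP, had means of 26.94 and 21.47 CPM in controls and 23.73 and 35.86 CPM in the knockout (interaction 0.93, interval 0.38 to 1.47). Fmo5, a flavin monooxygenase of liver, fell by 0.64 ± 0.15 in controls, and its change in the knockout was 0.15 ± 0.14 (interaction 0.79, interval 0.38 to 1.21). The other 9 genes had interactions from -1.19 (Lrit1) to 1.14 (Tnip2): they were Lrit1, Snx24, Yif1a, Tnip2, Smg1, Mettl27, Bend7, Vps37b and Slc39a8.

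**Figure D3:**
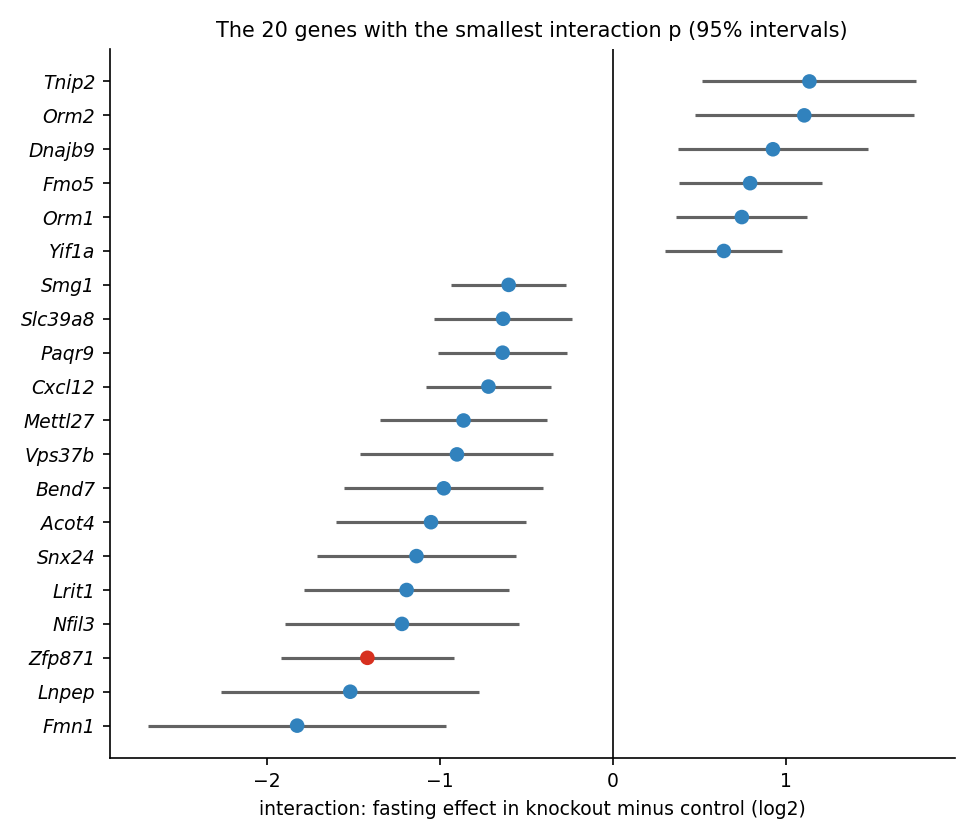
Interaction (log2, fasting change in knockout minus control) with its 95% interval for the 20 genes of smallest p among those with a symbol of their own and a mean log2 CPM of 2 or more. Red marks Zfp871, the only gene called; the intervals are not adjusted for the number of genes, and all exclude 0 because the genes were chosen by p.

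The size of the fasting response as a whole was compared over the 541 genes called with an averaged change of at least 2-fold, 287 higher and 254 lower. In 537 of them the change had the same sign in both genotypes, and Pearson's r between the changes was 0.781 across these genes, which are not independent replicates. Choosing genes by an averaged change itself favours equal signs. The control change rests on 5 libraries in each feeding state and the knockout change on 6. An unweighted average can therefore also favour genes whose change is larger in controls. How far it did so was not tested. Over all 9532 genes with a mean log2 CPM of 2 or more, chosen without regard to fasting, r was 0.745. Among the 541 genes the absolute change was larger in controls for 369 and larger in the knockout for 172, with medians of 1.68 and 1.42 on the log2 scale. For the 287 risers the median interaction was -0.336, with 207 of 287 below 0. For the 254 fallers it was 0.185, with 162 of 254 above 0. The median of all 16757 genes was 0.006, with 8269 below 0. Intervals lay entirely on the side of a smaller change in the knockout for 50 risers and 20 fallers, and on the other side for 4 and 10. Among genes changed at least 4-fold the medians were -0.945 for 117 risers and 0.591 for 66 fallers, with intervals whose median half-width was 3.11 and 2.29, and without a minimum fold -0.106 and 0.093. These values were smaller in better expressed genes. At a mean log2 CPM of 2 or more the medians were -0.198 for 152 risers and 0.13 for 157 fallers changed at least 2-fold, and -0.273 for 37 risers and 0.416 for 24 fallers changed at least 4-fold. In the 157 fallers 8 intervals lay on the side of a smaller change in the knockout and 7 on the other. When the genes were instead chosen by an average weighted by library number, the medians were -0.262 for 276 risers and 0.169 for 257 fallers. The fallers' median moved to 0.061 without knockout fasted replicate 3 and to 0.31 without control fasted replicate 6.

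In the risers the medians of the genotypes lay further apart in fed than in fasted livers, which was not tested. The 152 risers whose mean log2 CPM reached 2 had a mean log2 CPM of 3.84 to 4.37 in control fed livers (median 4.0) and 4.01 to 4.55 in knockout fed livers (median 4.28). In fasted livers the ranges were 5.70 to 6.12 and 5.69 to 6.10. The genotypes overlapped in both feeding states. Over all 287 risers the median difference of knockout from control was 0.27 in fed livers and -0.08 in fasted livers. The 157 fallers of that level ranged from 5.39 to 5.70 in control fed and 5.35 to 5.67 in knockout fed livers, and from 3.62 to 4.24 and 3.56 to 4.27 in fasted ones.

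How precisely the interaction was estimated varied with expression. The intervals are not adjusted for the number of genes, so a difference larger than the half-width could still go uncalled, as for Fmn1 and Lnpep. The half-width of the 95% interval of the interaction had a median of 0.82 over all genes, 0.58 at a mean log2 CPM of 2 to 5 and 0.37 at 5 or more. An interval entirely within a 2-fold difference was reached by 7512 genes (44.8%), and by 3171 of 3423 genes (92.6%) in the highest class.

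Genes were also grouped into 24 lists of liver pathways and responses and 12 lists of cell type markers, with 549 distinct genes tested. None of the 549 was called in the interaction, where 786 genes in all had an unadjusted p under 0.05. The lists are therefore described by their counts and medians, with no test. Their counts stand beside shares over all genes of 7.08% risers and 7.26% fallers in the averaged response, and of 4.69% with an interaction interval that excluded 0.

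PPARA targets rose in both genotypes. Of 32 tested, 29 rose and 0 fell in the averaged response, 27 in controls and 26 in the knockout, with median changes of 1.58 and 1.35. The interaction was below 0 for 22 of 32, with a median of -0.20, and 3 intervals excluded 0. These included Acot4, Acot1 and Acsl1, the acyl-CoA synthetase that admits fatty acids to oxidation, which rose by 1.55 ± 0.12 in controls and 1.15 ± 0.10 in the knockout (interaction -0.40, interval -0.71 to -0.09). Acot1, a cytosolic thioesterase, rose by 4.08 ± 0.39 and 2.75 ± 0.34 (interaction -1.33, interval -2.32 to -0.34). Acot1, Acot3 and Acot4, and likewise the Cyp4a genes, are similar copies, so their reads may be split unevenly. The list median ranged from -0.38 without control fed replicate 2 to -0.11 without control fed replicate 4; it was -0.12 without control fasted replicate 5 and -0.13 without knockout fed replicate 2.

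Mitochondrial oxidation and ketogenesis genes also rose in both genotypes. Of 20 tested, 17 rose in the averaged response, 16 in each genotype, with medians of 0.90 and 0.73. The interaction was below 0 for 17 of 20, with a median of -0.17, and all 20 intervals lay within a 2-fold difference. Cpt1a, which carries fatty acids into the mitochondrion, rose from a mean of 246.4 to 798.8 CPM in controls and from 299.0 to 752.6 CPM in the knockout (interaction -0.36, interval -0.75 to 0.02). Acadm, the medium-chain dehydrogenase, had an interaction of -0.37 (interval -0.71 to -0.04) and the only interval of the 20 that excluded 0. That 1 of 20 lies near the 4.69% of all genes. The list's median was -0.04 with the library labelled control fasted replicate 4 included, and -0.08 when control fed replicate 5 and knockout fasted replicate 4 were both left out.

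The acute phase list held the largest number of intervals away from 0. Acute phase genes encode serum proteins that hepatocytes make under cytokine control. Of 24 tested, 23 had an interaction above 0, with a median of 0.55, and 12 intervals were entirely above 0. In controls 8 fell and 1 rose on fasting (median -0.63), and in the knockout 1 fell and 3 rose (median 0.21). Controls showed falls of Orm1, Orm2 and the 3 fibrinogen chains Fga, Fgb and Fgg, among others. The fibrinogen genes changed by -0.61, -0.53 and -0.64 in controls and by -0.21, -0.10 and -0.20 in the knockout, with interactions of 0.41 (interval 0.04 to 0.78), 0.43 (0.04 to 0.82) and 0.44 (0.05 to 0.82). Lbp, which binds bacterial lipopolysaccharide, rose by 0.63 and 0.61 and had the only interaction below 0 (-0.03, interval -0.35 to 0.29).

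By library, the mean log2 CPM of the 24 acute phase genes was 7.36, 7.34, 7.42, 7.30 and 8.10 in control fed livers. In control fasted livers it was 6.61, 6.96, 6.86, 6.72 and 7.0. In the knockout it was 6.93 to 7.10 when fed (median 7.03) and 6.82 to 7.71 when fasted (median 6.96). The control groups did not overlap, the knockout groups did, and every knockout fed library lay below every control fed one. Control fed replicate 5 and knockout fasted replicate 4 stood apart at 8.10 and 7.71. In these libraries the serum amyloid gene Saa1 was at 419.3 and 256.3 CPM, where the other libraries of their groups had at most 58.65 and 34.08 CPM. Lcn2, which encodes the siderophore-binding protein lipocalin 2, was at 78.32 and 167.4 CPM there, against at most 15.33 and 15.91 CPM. Saa1, Saa2 and Lcn2 had large interactions with wide intervals (2.56, 3.08 and 3.38; for Lcn2 from 0.85 to 5.91). With both libraries left out the list's median interaction was 0.33. Saa1 and Saa2 are near-identical copies.

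The capitals in the Orm2 promoter mark TTNNGNAA in either orientation, the letters of a site for C/EBP factors, which act in acute phase genes. It is shown as a list member among the 20 genes (RefSeq, chr4:63362199-63362498, plus strand).
Orm2: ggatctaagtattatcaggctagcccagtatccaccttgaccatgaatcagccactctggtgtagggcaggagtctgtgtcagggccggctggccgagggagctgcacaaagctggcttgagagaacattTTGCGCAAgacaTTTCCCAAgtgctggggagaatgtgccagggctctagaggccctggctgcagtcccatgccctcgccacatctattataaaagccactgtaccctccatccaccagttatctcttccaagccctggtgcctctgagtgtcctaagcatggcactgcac
Its 2 matches are separated by a few bases. TTNNGNAA was present in 15 of 21 acute phase genes with a window (71.43%), against 44.14% of all genes, and also in 70.59% of interferon stimulated genes and 62.5% of glycolysis and glycogen genes. CCAAT was present in 3 of the 21 (14.29%), against 41.06% of all. These matches are descriptions of letters, and factor binding was not measured.

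Chaperones of the endoplasmic reticulum, which fold secreted proteins such as those above, had an interaction above 0 in 21 of 21 genes, with a median of 0.39 and 4 intervals above 0. On fasting 6 fell and 0 rose in controls (median -0.42), and 0 fell and 1 rose in the knockout (median -0.03). The gene that rose was Dnajb9, by 0.60 ± 0.18 (adjusted p = 0.042). Xbp1, the transcription factor of the unfolded protein response, fell by 0.47 ± 0.13 in controls and had a change of -0.03 ± 0.12 in the knockout (interaction 0.45, interval 0.10 to 0.80). Hspa5, the chaperone BiP, ranged from 488.4 to 608.5 CPM in control fed and from 343.2 to 503.4 CPM in control fasted livers, and from 336.5 to 658.9 and 363.9 to 1025 CPM in knockout fed and fasted ones. The groups overlapped in both genotypes, and the highest value was that of knockout fasted replicate 4. Its interaction was 0.65 (interval -0.05 to 1.34). The list's mean log2 CPM was 7.17 to 7.30 in control fed and 6.44 to 7.02 in control fasted livers, without overlap, and 6.63 to 7.42 and 6.55 to 7.68 in the knockout, with overlap. Limma voom with sample weights gave a list median of 0.23.

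The Hspa5 promoter shows the letters that many of these genes share: capitals mark CCAAT in either orientation, and the ER stress element, which is CCAAT, a spacer of 9 bases and CCACG (RefSeq, chr2:34771840-34772139, plus strand).
Hspa5: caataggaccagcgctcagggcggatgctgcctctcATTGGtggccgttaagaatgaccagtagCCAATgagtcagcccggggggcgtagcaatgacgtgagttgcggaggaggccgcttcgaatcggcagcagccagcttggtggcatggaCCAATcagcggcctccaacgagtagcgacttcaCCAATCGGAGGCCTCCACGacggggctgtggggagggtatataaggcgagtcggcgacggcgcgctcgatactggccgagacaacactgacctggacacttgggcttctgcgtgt
CCAAT was present in 16 of 18 ER chaperone genes with a window (88.89%; in cell division genes, 85.71%), and the full element in 7 of 18 (38.89%), against 0.14% of all genes.

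Cholesterol synthesis genes and other SREBP2 targets had interactions of the opposite sign: the estimated change was lower in the knockout for all but Ebp. Of 25 tested, 24 had an interaction below 0, with a median of -0.84, but only 2 intervals, those of Acat2 and Hsd17b7, excluded 0. On fasting 7 fell in controls (median -1.02) and 19 in the knockout (median -1.81), with 0 risers in either. Hmgcs1, which makes the precursor of mevalonate, had 831.2, 461.8, 333.8, 569.0 and 243.3 CPM in control fed and 539.8, 318.4, 74.89, 169.3 and 104.5 CPM in control fasted livers, which overlapped. In the knockout it ranged from 648.9 to 1307 CPM when fed and from 68.57 to 304.6 CPM when fasted, which did not. Its fasting change was -1.02 ± 0.50 (adjusted p = 0.279) in controls and -2.33 ± 0.48 (adjusted p = 0.00424) in the knockout, and its interaction -1.31 (interval -2.74 to 0.11). Sqle, the squalene epoxidase, had an interaction of -0.97 (interval -2.66 to 0.71). Acat2, an acetyl-CoA acetyltransferase, had the narrowest interval of the 2 that excluded 0: it changed by -1.05 ± 0.17 and -1.74 ± 0.16 (interaction -0.68, interval -1.16 to -0.21; adjusted p = 0.997). Ebp, a sterol isomerase, fell by 0.85 ± 0.12 and 0.77 ± 0.11 and had the only interaction above 0 (0.08, interval -0.25 to 0.40).

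The mean log2 CPM of the 25 genes was 7.56, 6.91, 6.73, 7.03 and 6.53 in control fed livers and 7.02, 6.39, 5.01, 5.41 and 5.26 in control fasted livers, which overlapped. In the knockout it was 7.17 to 7.92 when fed (median 7.36) and 4.61 to 6.26 when fasted (median 5.76), which did not. Control fasted replicate 1 was the highest fasted library and lay among the fed ones. The other control fasted libraries, at 6.39 or less, lay below every control fed one. Without control fasted replicate 1 the list's median interaction was -0.33. Left out together, control fed replicate 5 and knockout fasted replicate 4 gave -0.56, and limma with neighbouring title numbers as a random block -0.53. The difference of knockout from control had a median of 0.45 in fed and -0.30 in fasted livers.

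In the Hmgcs1 promoter capitals mark CCAAT in either orientation and the sterol regulatory element TCACNCCAC, the letters bound by SREBP (RefSeq, chr13:119690101-119690400, plus strand).
Hmgcs1: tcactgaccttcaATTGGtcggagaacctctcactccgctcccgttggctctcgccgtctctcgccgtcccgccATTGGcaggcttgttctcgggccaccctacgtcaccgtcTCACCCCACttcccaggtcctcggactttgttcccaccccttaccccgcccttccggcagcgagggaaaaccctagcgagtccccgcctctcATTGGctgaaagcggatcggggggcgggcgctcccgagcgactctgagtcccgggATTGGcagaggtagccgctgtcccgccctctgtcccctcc
CCAAT was present in 16 of 17 cholesterol genes with a window (94.12%), against 41.06% of all genes, and it occurred 4 times here. The element TCACNCCAC was present in 1 of the 17, Hmgcs1 itself (5.88%), against 1.44% of all genes. Other letters were also searched: the PPAR response element, in its unvaried form, was present in 0 of 23 PPARA targets with a window and in 0.05% of all genes, and the core letters of a cAMP response element, TGACG, in 8 of 20 genes of glucose production and pyruvate handling (40.0%), against 23.05% of all genes.

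**Figure D4:**
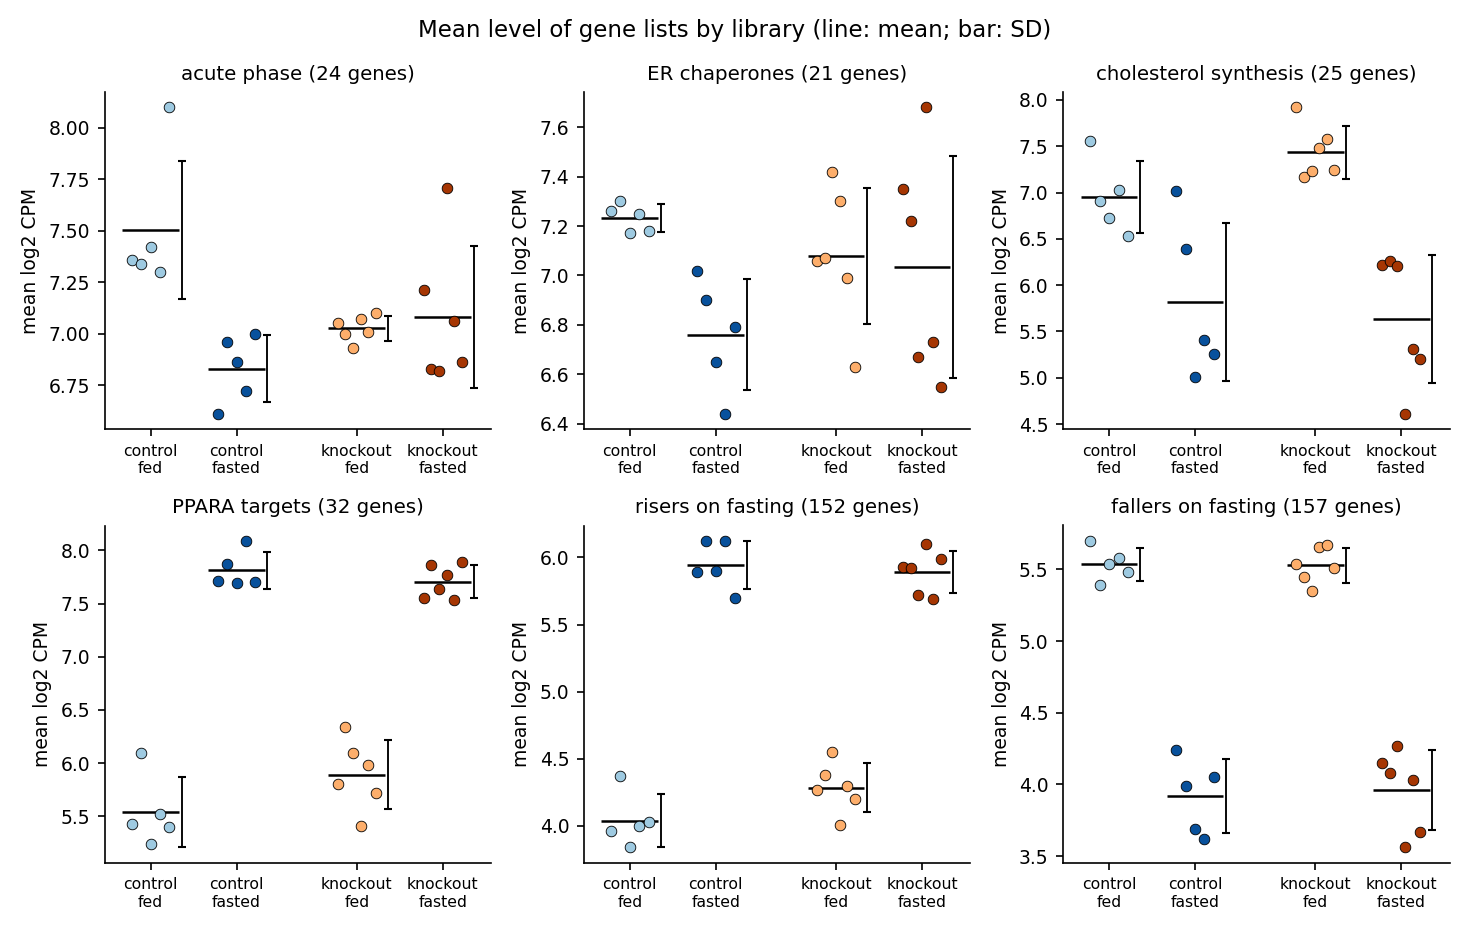
Mean log2 CPM of 4 lists and of the genes that rose or fell at least 2-fold on fasting, by library; points are libraries, lines group means and bars SD (n = 5 for control and 6 for knockout groups). Acute phase and ER chaperone genes separate fed from fasted controls but not fed from fasted knockouts, cholesterol genes do the reverse, and PPARA targets separate the feeding states in both genotypes.

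In pathways of the deleted enzyme the list medians of the interaction ran from -0.10 (transaminases) to 0.15 (urea cycle), with members on both sides. Of 21 genes that make glucose or handle pyruvate, 10 rose and 1 fell on fasting, and the median interaction was 0.006, as for all genes. Of these, 14 intervals lay within a 2-fold difference. Pck1, which commits carbon to glucose, went from 2136 to 3938 CPM in controls and from 1935 to 3583 CPM in the knockout (interaction 0.01, interval -0.77 to 0.78). Its regulator Ppargc1a had an interaction of -0.07 (interval -0.76 to 0.62). Gpd1, which feeds glycerol into the pathway, rose by 0.94 ± 0.11 and 0.93 ± 0.10 (interaction -0.01, interval -0.32 to 0.30). Slc37a4, the glucose-6-phosphate transporter, was the 1 gene of the list with an interval above 0: it went from 119.2 to 152.1 CPM in controls and from 87.47 to 171.8 CPM in the knockout (interaction 0.62, interval 0.18 to 1.06; adjusted p = 0.997). G6pc, the enzyme it serves, had a point estimate of the opposite sign (-1.13, interval -2.31 to 0.05).

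Of 15 transaminases, 12 intervals lay within a 2-fold difference, and the 1 that excluded 0 was that of Gpt. That 1 of 15, and 1 of 21 for the glucose genes, lie near the 4.69% of all genes. Among 34 genes of amino acid breakdown 6 rose and 12 fell on fasting, the median interaction was 0.05, 32 intervals lay within a 2-fold difference and 0 excluded 0. Its median ran from -0.015 without knockout fasted replicate 3 to 0.228 when the library labelled control fasted replicate 4 was added. The 8 urea cycle genes had a median interaction of 0.15 (0.02 with control fed replicate 5 and knockout fasted replicate 4 both left out). The interaction was above 0 for 7 of the 8. All 8 intervals lay within a 2-fold difference, and 0 excluded 0. Cps1, the entry step of the cycle, had 0.05 (interval -0.31 to 0.41), and Asl, which releases arginine, rose by 1.24 in both genotypes (interaction 0.00, interval -0.56 to 0.56). For 17 amino acid transporters the median was -0.05, and 0.028 without control fed replicate 3. For 25 genes of the ATF4 and integrated stress response it was -0.12, and it ran from -0.19 without knockout fasted replicate 4 to 0.093 without control fasted replicate 1; it was also above 0 without control fasted replicate 5, control fed replicate 1, knockout fasted replicate 1 or 6, or knockout fed replicate 4. No direction is read from either list. In fatty acid synthesis 14 of 23 genes fell and 3 rose on fasting, with a median interaction of 0.05. Of the 23 intervals 3 lay above 0 and 1 below, a larger share than the 4.69% of all genes. The median fasting change was -0.67 in controls and -0.36 in the knockout. Fasn, the fatty acid synthase, fell by 1.77 ± 0.34 and 1.67 ± 0.31 (interaction 0.10, interval -0.84 to 1.03).

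**Figure D5:**
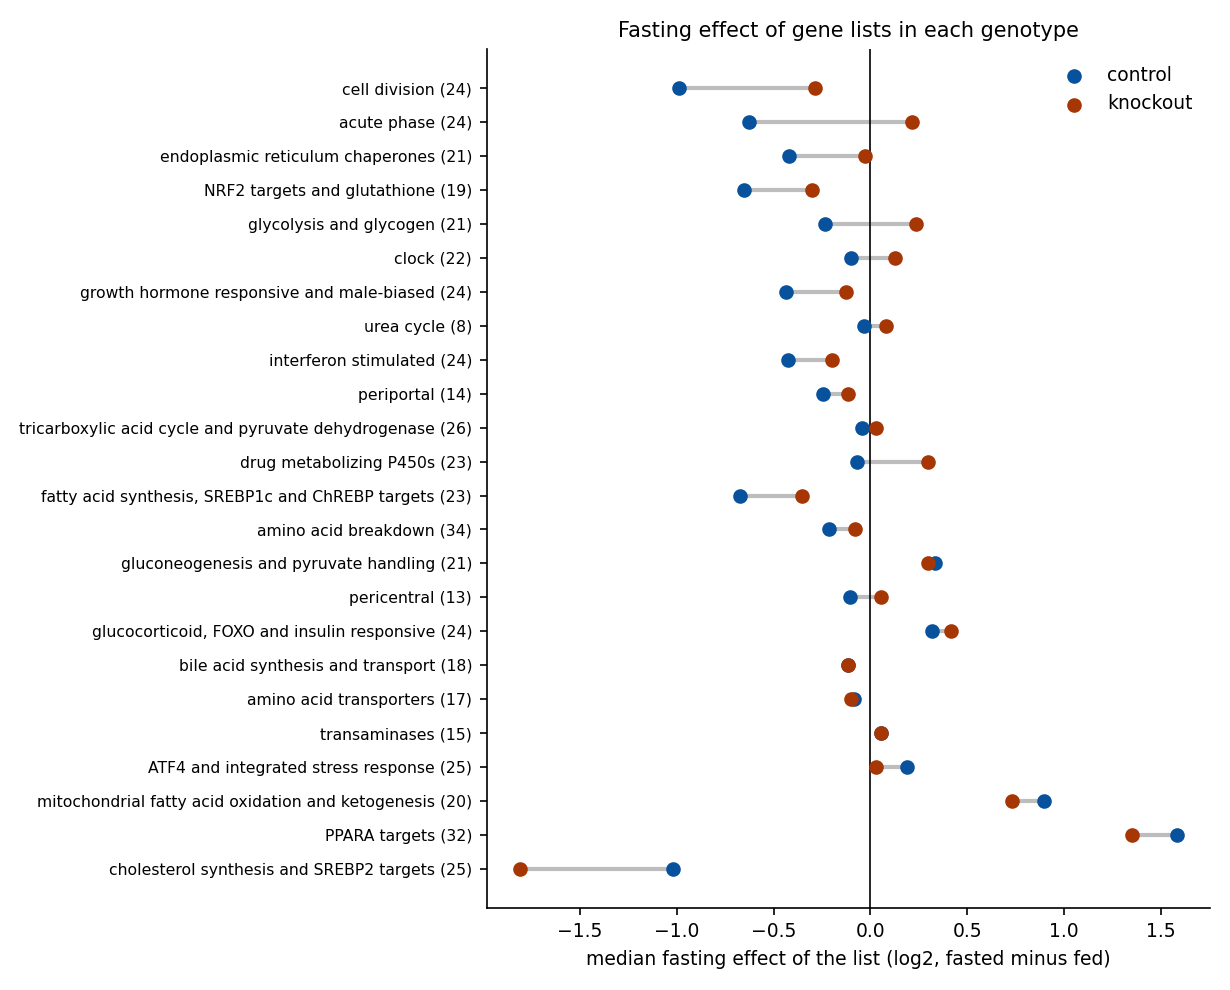
Median log2 change on fasting of the genes of 24 lists in control and knockout livers, ordered by the median interaction, with the number of genes tested in brackets. The cholesterol list lies lower in the knockout; the acute phase and glycolysis lists lie below 0 in controls and above 0 in the knockout; several lists of amino acid and glucose metabolism have near-equal medians.

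Among the other lists, the interaction was above 0 for 20 of 21 genes of glycolysis and glycogen (median 0.35, and 0.21 without knockout fasted replicate 4), for 18 of 22 clock genes (median 0.33, and 0.15 without knockout fasted replicate 3, 0.21 without control fasted replicate 5 and 0.22 without control fed replicate 2), for 15 of 19 NRF2 targets (median 0.36, and 0.15 with the library labelled control fasted replicate 4) and for 13 of 14 periportal genes (median 0.14). In the same order, 3, 2, 4 and 2 intervals lay above 0, and 1 clock interval lay below 0. The periportal median was 0.045 with control fed replicate 5 and knockout fasted replicate 4 both left out. For 24 cell division genes the median was 0.56, the highest of the 24 lists. It was 0.055 with control fed replicate 5 and knockout fasted replicate 4 both left out. Of 24 interferon stimulated genes 19 were above 0 (median 0.15). In these last lists 0 intervals excluded 0. Cdh1, the periportal cadherin, fell by 1.51 ± 0.21 in controls and 0.76 ± 0.19 in the knockout (interaction 0.75, interval 0.17 to 1.33). Irs2, the insulin receptor substrate that rises in fasted liver, went from 15.62 to 36.29 CPM in controls and from 33.48 to 26.57 CPM in the knockout, with overlap in each genotype (interaction -1.55, interval -2.60 to -0.50; adjusted p = 0.977). The list it belongs to, of glucocorticoid, FOXO and insulin responsive genes, had a median of -0.01. Cyp8b1, the sterol hydroxylase that sets the mix of bile acids, rose by 1.5 ± 0.20 in controls and 0.67 ± 0.18 in the knockout (interaction -0.83, interval -1.38 to -0.28).

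Markers of other cell types were measured as well. All 7 Kupffer cell markers had an interaction above 0 (median 0.52), and their summed level was 108.0 to 171.2 CPM in control fed, 93.6 to 121.4 in control fasted, 135.4 to 217.8 in knockout fed and 98.88 to 220.6 in knockout fasted livers. All 5 red cell markers did too (median 0.85), with sums of 283.8 to 630.7, 280.9 to 572.2, 246.2 to 449.9 and 347.3 to 627.3 CPM. Intervals lay above 0 for 3 of the 5 red cell and 1 of the 7 Kupffer cell markers. For 1 of the 7 endothelial markers the interval lay below 0. Fed and fasted livers of each genotype overlapped in both sums, while the Kupffer cell sum of every knockout fed liver was above that of every control fasted liver. The 7 endothelial markers had a median of -0.13, and -0.269 without knockout fasted replicate 5, -0.052 without knockout fasted replicate 3, -0.048 without knockout fed replicate 3 and -0.025 without control fasted replicate 5. The 7 stellate and fibroblast markers had 0.10, which turned to -0.021 without control fed replicate 4, -0.012 without control fasted replicate 6 and -0.003 without control fasted replicate 3. The 6 hepatocyte markers had 0.09, and -0.012 with control fed replicate 5 and knockout fasted replicate 4 both left out. The neutrophil markers summed to at most 6.329 CPM in any library and the T, NK and B cell markers to at most 6.575 CPM. The part of these cells in the interaction of the acute phase and other lists was not tested.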

How the data were processed

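RNA of mouse liver was sequenced as oligo-dT libraries, per the labels. The deposited counts per gene were made by the authors with STAR 2.5.1a and featureCounts 1.4.6-p5 on GRCm38, per the submitters' processing notes. Whether counting used strand is not given in the sources used here, and reads of overlapping or antisense partners cannot be separated. The deposited CPM and RPKM columns, per the file headers, served only to check the counts. Groups came from the titles. Control fed replicate 6 (damaged file) and control fasted replicate 4 (kidney-like) were left out.

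Symbols came from GENCODE M21 for 40254 genes (97.3%). Counts were fitted with edgeR 4.0.16 in R 4.3.3 (TMM, filterByExpr with a minimum count of 10, robust glmQLFit and glmQLFTest) with 4 group means and no covariate. A call meant an adjusted p (Benjamini-Hochberg, all 16757 genes) under 0.05, and the scripts were tested on simulated data. SE was the absolute log2 change over the root of F, and intervals are 95% intervals. List levels are means of log2 CPM with a prior count of 2. Alternatives used DESeq2 1.42.0 and limma 3.58.1. Each title carries a number of its own, so libraries were not paired. Nothing states that each is a separate animal, and p-values measure the spread between libraries.

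Named were Gpt2, Gpt, the 20 genes of smallest interaction p and the 10 largest averaged fasting changes in each direction (both at a mean log2 CPM from 2 upwards) and, per list, the 2 genes of smallest interaction p and of smallest averaged fasting p, without predicted genes and pseudogenes. Others (Sqle, Hmgcs1, Pck1, Ppargc1a, Saa1, Saa2, Lcn2, Fga, Fgb, Fgg, Fasn, Cps1, Hspa5 and Colgalt2) were named after their values were seen. Some genes are not reported here. The members and lists were chosen with earlier results of these data known.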

Additional observations from a re-analysis of the deposited data

Results flagged for a closer look

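Zfp871 differed between genotypes in its response to fasting, with an interaction of -1.42 on the log2 scale, a call that was lost in 13 of 22 fits with 1 library left out. Data left out of the comparisons also held a signal: the library labelled control fasted replicate 4 had 21627 CPM of kidney tubule markers, against at most 18.97 CPM in the libraries used.

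Single libraries stood apart from the rest of their group in 24 of 220 groups of values, over 55 genes. Chance alone would flag about 1 in 20 such groups if the values were normally distributed and independent. The genes were measured in the same livers, so 24 of 220 cannot be set against that share. Genes named after their values were seen are among the 55. Without them it was 15 of 168 groups, over 42 genes. Control fed replicate 5 was high in Saa1 (419.3 CPM, others at most 58.65), Saa2 (155.7, others at most 12.88), Lcn2 (78.32, others at most 15.33), Gpt (498.5, others at most 383.3) and Vps37b (27.63, others at most 14.44). Knockout fasted replicate 4 was high in Saa1 (256.3 CPM, others at most 34.08), Saa2 (43.5, others at most 9.594), Lcn2 (167.4, others at most 15.91) and the cell cycle inhibitor Cdkn1a (161.8, others at most 38.36).

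Control fasted replicate 2 was high in Saa1 (83.66 CPM), Lcn2 (28.84 CPM), Fmo5 (414.4 CPM), Cyp4a10 (5235 CPM) and the apolipoprotein gene Apoa4 (1652 CPM). Control fed replicate 4 was high in Cyp2c70 (773.8 CPM) and Cyp26a1 (42.37 CPM), control fed replicate 3 in Nudt7 (628.9 CPM) and control fed replicate 2 in Ppargc1a (17.57 CPM). Control fasted replicate 5 was high in Acot1 (370.4 CPM) and knockout fasted replicate 2 in Acot3 (85.93 CPM). Among knockout fed libraries, replicate 3 was high in Apoa4 (118.9 CPM) and replicate 4 in Yif1a (50.06 CPM), and replicate 6 was low in Bend7 (5.521 CPM). Bend7 was also low in knockout fasted replicate 1 (5.828 CPM).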

How the results depend on the processing

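The interaction test called 1 gene with each of 7 other settings (RLE factors, library totals, both other filters on low counts, the 20 most abundant and mitochondrial genes left out, limma voom with sample weights, and limma with neighbouring title numbers as a random block), and Zfp871 was that gene in each. DESeq2 called 6 genes, Zfp871 among them, with 850 at an unadjusted p under 0.05. The robust option switched off gave 0 calls in edgeR (843 at an unadjusted p under 0.05), with an adjusted p of 0.0842 for the Zfp871 interaction. Including the library labelled control fasted replicate 4 also gave 0 (964 unadjusted), as did leaving out control fed replicate 5 and knockout fasted replicate 4 together (823 unadjusted), a setting added after the data were seen. With each library left out in turn the interaction count was 0 to 1, and the fasting counts were 2194 to 2458 averaged, 1088 to 1434 in controls and 845 to 1075 in the knockout. The interaction of Gpt2 ranged from -0.125 to 0.119 in those fits. Adding control fasted replicate 4 made the fasting calls 1529 (2404 without it) averaged over genotypes, 805 in controls (1360) and 379 in the knockout (1029), and the averaged fasting change of Spp1, a cholangiocyte marker, turned to 0.374 from -0.56. With no filter on low counts the fasting-responsive genes, higher, numbered 499 (287 with it) and the fasting-responsive genes, lower, 385 (254). Intervals were wider for genes with fewer reads: to each side, an interaction's interval reached a median of 0.58 on the log2 scale at a mean log2 CPM of 2 to 5 and 3.77 under 0. No paired analysis was possible because the title number of every library is its own. Neighbouring title numbers were used instead as a random block in limma, which had a within-block correlation of -0.0128. The choice of fasting-responsive genes by a library-weighted average, and their restriction to a mean log2 CPM of 2 or more, were also added after the data were seen.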
